A study of Arabidopsis thaliana with 6 samples.

Results

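In Arabidopsis seedlings treated with NJ15, a set of 78 probe sets stood lower in every treated array than in any mock array. They were chosen by their measured values. The highest of the 3 NJ15 values had to lie below the lowest of the 3 mock values, and the NJ15 mean had to be at least 0.4 log2 units below the mock mean. Of 22746 tested probe sets, 80 met both conditions, which is 0.352% of all of them. XTH16 and XTH20, which encode xyloglucan-remodelling enzymes of the cell wall, were left out by name, and 78 members remained. Because this difference chose the members, their NJ15 and mock values are given as a description, with no test.

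The tested arrays held RNA of Arabidopsis thaliana Col-0 seedlings that had received a spray of 10 µM NJ15, and the other arrays held RNA of Col-0 seedlings sprayed with mock solution. NJ15 is a synthetic ethyl ester of a tetrazole acetic acid with a dichlorophenyl ring. In both groups the seedlings had grown upright for 4 days on MS plates, were turned by 90 degrees after the spray and were harvested 8 h later. Each group had 3 Affymetrix arrays, which the labels call biological replicates, and precision is bounded by that small number. Whole seedlings were used, so fewer cells of a type and less RNA per cell cannot be told apart. The labels name no batch.

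Cell growth after a turn depends on walls that yield and are then fixed again. Pectin methylesterases remove methyl groups from wall pectin, and their protein inhibitors hold them back. Secreted class III peroxidases can both loosen walls and cross-link them. Plastids carry a small genome of their own, which encodes part of their ribosome and the core of one RNA polymerase beside proteins of photosynthesis.

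A level below is the deposited value, read as log2, and a change is the mean of the NJ15 arrays minus the mean of the mock arrays on that scale. The changes of the 78 members ran from -1.21 to -0.40 with a median of -0.53, which on a linear scale is an NJ15 level of 0.432 to 0.758 times the mock level. The median change was -0.0062 over the 6144 tested probe sets whose 6 values spanned more than 0.01, called varying here. The other 16602 (73.0%) were flat, with nearly the same value on every array, and no flat probe set could become a member. Members made up 1.3% of the varying probe sets, counting both XTH genes, and 5.96% of the varying probe sets lay lower in every NJ15 array by any amount. In the opposite direction 244 probe sets (1.07% of those tested) were higher in every NJ15 array by 0.4 or more, with a median change of 0.91.

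**Figure D1:**
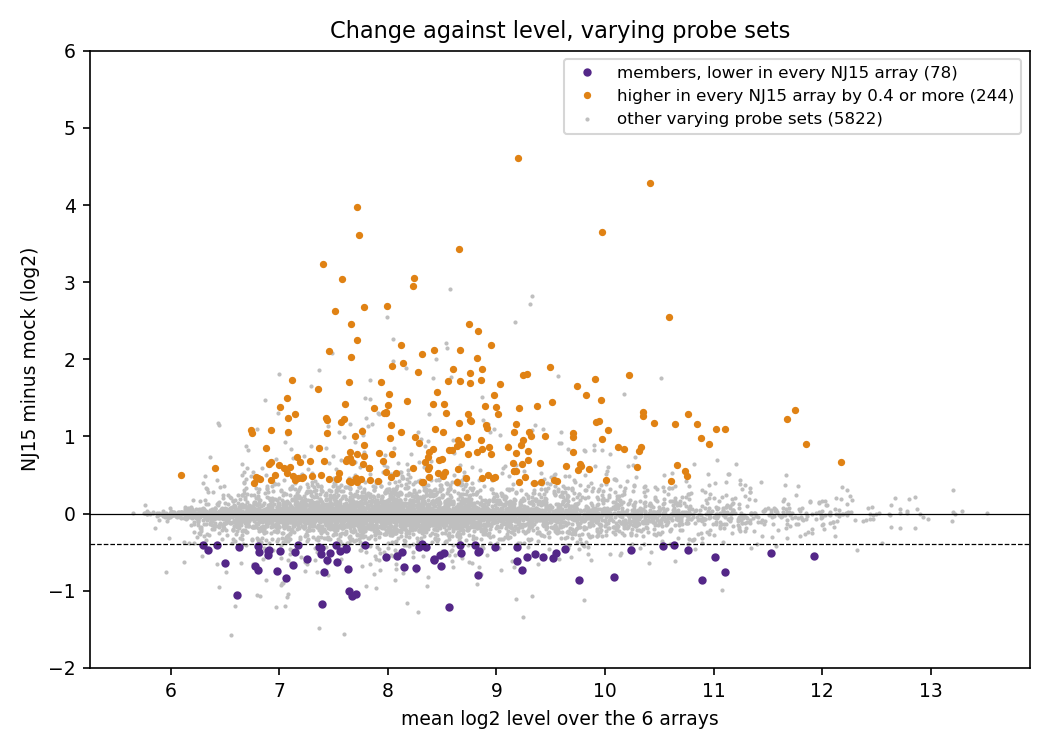
The horizontal axis is the mean log2 level over the 6 arrays and the vertical axis is the change, NJ15 minus mock in log2 units, with 1 point for each of the 6144 varying probe sets. The 78 members (purple) run from -1.21 to -0.40 and spread over levels of 6.30 to 11.93, the 244 probe sets higher in every NJ15 array (orange) reach 4.62, and the dashed line marks -0.4.

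Members were not a dim or a bright subset. Their median level was 8.11, beside 8.15 over all varying probe sets and 7.26 over all tested ones. Within the groups their median SD was 0.19 in NJ15 and 0.19 in mock seedlings, beside 0.12 and 0.18 over all varying probe sets. A change of -0.5 or beyond was seen in 46 members, -0.8 or beyond in 11 and -1 or beyond in 6. The distance between the highest NJ15 and the lowest mock array had a median of 0.15 and ran from 0.0032 to 0.75, and it exceeded 0.2 in 29 members. Just inside the threshold lay AT1G73620 at -0.41 and a pair of unnamed probe sets at -0.40 each (-0.403 and -0.401). Just outside it lay the plastid gene ccsA at -0.3998, an unnamed probe set at -0.398 and AT3G43960 at -0.396, all with groups apart.

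The limma fit over all tested probe sets called none of the 78 members lower at an adjusted p under 0.05, beside 0.11% of all tested probe sets called in that direction. Of the 44 calls of this fit in both directions, only 4 were varying probe sets and the others were flat, so that share is no measure of genes that changed. At an unadjusted p under 0.05 the fit held 46 of the members, beside 3.12% of all tested probe sets. A limma fit over the varying probe sets alone likewise called none, beside 0% of the varying ones, and held 65 members at an unadjusted p under 0.05, beside 2.82%. These counts come from the difference that chose the members. The rule was also applied with 1 array left out, where groups overlap less easily, so counts tend to rise whichever array is missing. With 5 arrays it took 256, 203 and 137 probe sets without mock replicates 3, 1 and 2, and 134, 80 and 137 without NJ15 replicates 1, 2 and 3. Between 61 (without mock replicate 3) and 72 (without NJ15 replicate 3) of the 78 members were among them. Members keep their groups apart in any leave-out, so those lost fell short of the -0.4 threshold alone.

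A gene name was known for 36 members, 35 with 1 gene and 1 shared by 5 histone genes, and 42 were unnamed (53.8%, beside 47.7% of all varying probe sets). Named and unnamed members were alike in size, with median changes of -0.52 and -0.55. Roles of genes that carry only a locus number are textbook background and not an entry of the files. The named members were grouped by role after their names were seen. They held 5 genes of pectin and other wall polysaccharides, 6 genes of other secreted proteins, 4 plastid genes, 5 regulatory or chromatin members, 6 metabolic enzymes, 5 stress or ion-binding genes and 5 genes with no role given here.

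**Figure D2:**
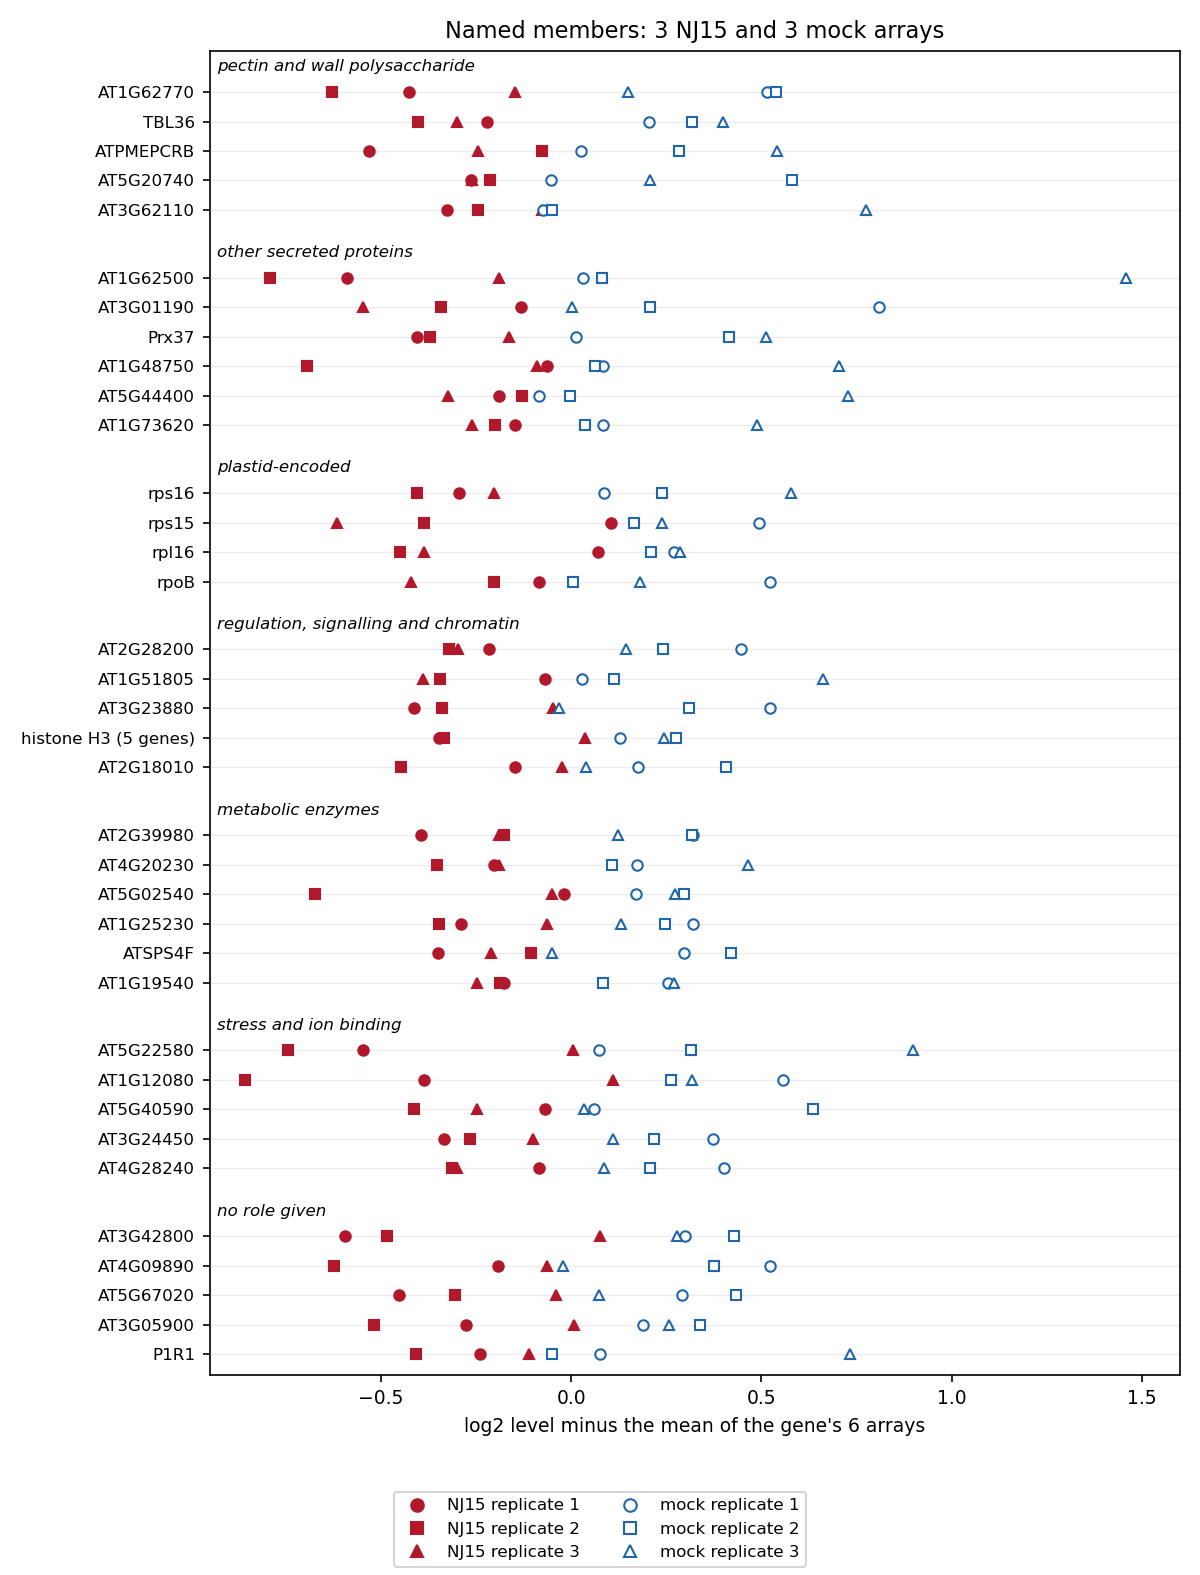
Each row is 1 of the 36 named members, grouped by role, and the horizontal axis is its log2 level on each array minus its mean over 6 arrays. In every row the NJ15 arrays (filled red) lie left of the mock arrays (open blue), and in AT1G62500 mock replicate 3 stands far right of the other mock arrays.

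Among genes of wall polysaccharides, AT1G62770 had the largest change. It encodes a member of the family of pectin methylesterase and invertase inhibitors. Its levels were 8.40, 8.20 and 8.68 in the NJ15 arrays, against 9.34, 9.37 and 8.98 in the mock arrays, a change of -0.80. NJ15 replicate 3 and mock replicate 3 came closest to each other, 0.30 apart. TBL36, of a family that adds acetyl groups to wall polysaccharides, stood at 8.97, 8.79 and 8.89 in NJ15, against 9.40, 9.51 and 9.59 in mock, a change of -0.61. It had the widest separation of any named member, 0.42, and SDs of 0.09 in NJ15 and 0.10 in mock (n = 3 each).

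The pectin methylesterase gene ATPMEPCRB (PME41), whose enzyme acts on the substrate that the inhibitors protect, was lower as well. It measured 7.45, 7.90 and 7.74 in NJ15, against 8.01, 8.26 and 8.52 in mock (-0.57). AT5G20740, a second gene of the inhibitor family, had 7.30, 7.35 and 7.30 in NJ15, against 7.51, 8.14 and 7.77 in mock (-0.49). The NJ15 arrays of AT5G20740 were tightly grouped, and its mock arrays spread widely, so that the change was -0.32 without mock replicate 2. AT3G62110, of the polygalacturonase family that cuts pectin, had 7.96, 8.04 and 8.21 in NJ15, against 8.21, 8.23 and 9.06 in mock (-0.43). NJ15 replicate 3 of AT3G62110 met mock replicate 1 to within 0.0032, and without mock replicate 3 the change was -0.15.

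The other secreted proteins held the largest named change, that of AT1G62500, a gene of the lipid transfer and 2S albumin superfamily. Its levels were 7.11, 6.91 and 7.51 in NJ15, against 7.73, 7.78 and 9.16 in mock. The change of -1.05 (a linear ratio of 0.484) rested in part on mock replicate 3, far above the other mock arrays, and was -0.58 without it. AT1G48750, of the same superfamily, had 9.22, 8.59 and 9.19 in NJ15, against 9.37, 9.34 and 9.99 in mock (-0.57). Here the change was -0.35 without mock replicate 3 and -0.36 without NJ15 replicate 2, the lowest array.

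Both class III peroxidases among the members were moderately lower. AT3G01190 had 8.35, 8.14 and 7.94 in NJ15, against 9.30, 8.69 and 8.49 in mock, a change of -0.68 that was -0.45 without mock replicate 1. Prx37 had 7.13, 7.16 and 7.37 in NJ15, against 7.54, 7.95 and 8.04 in mock (-0.63), and no single array moved it by over 1.5 times. The last secreted members were AT5G44400, a berberine bridge enzyme-like oxidase, with a change of -0.43, and AT1G73620, a thaumatin-like protein, with -0.41. In both the mock arrays were close apart from mock replicate 3, and without it the changes were -0.17 and -0.26. Mock replicate 3 was the highest mock array in 5 of the 6 secreted members and in 3 of the 5 wall polysaccharide members.

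Relatives of these genes that carried a family name in the gene table were few. Of 7 named peroxidase probe sets 4 varied, and beside Prx37 the changes were -0.31 (AT5G66390), -0.07 (AT2G41480) and 0.01 (AT5G64120), of which AT2G41480 alone had its groups apart. Of 5 named pectin enzymes only ATPMEPCRB varied. Of 10 tested XTH probe sets 7 varied. Groups were apart only in 2, XTH16 and XTH20, which met the rule and were left out by name. All 7 were lower in NJ15 on average, with a median of -0.52. Expansins, which loosen walls without cutting them, did not share this side: of 10 varying probe sets 4 were lower and 6 higher on average, with a median of 0.11, and groups were apart only among the higher ones, in 4. Among all varying probe sets, groups were apart in 5.96% with NJ15 lower and in 6.51% with NJ15 higher. Limma called none of these peroxidase, pectin, XTH or expansin probe sets at an adjusted p under 0.05. Over all varying probe sets with 1 gene the median change was -0.01, with 1694 lower (199 of them with groups apart) and 1377 higher (169 of them with groups apart), of 3071.

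The plastid members were rps15, rps16, rpl16 and rpoB, which encode proteins of the small and large subunits of the plastid ribosome and a core subunit of the plastid RNA polymerase. rps16 had 7.15, 7.04 and 7.24 in NJ15, against 7.53, 7.68 and 8.02 in mock (-0.60). rps15 had 8.53, 8.04 and 7.81 in NJ15, against 8.92, 8.59 and 8.67 in mock (-0.60). These ribosomal genes thus shared the size of the change, but in rps15 NJ15 replicate 1 nearly reached mock replicate 2. rpl16 was the brightest named member, with 11.60, 11.08 and 11.14 in NJ15, against 11.80, 11.74 and 11.82 in mock (-0.51), and rpoB had 6.82, 6.70 and 6.48 in NJ15, against 7.43, 6.91 and 7.09 in mock (-0.47). In rps15, rpl16 and rpoB the highest NJ15 array was replicate 1, unlike most members.

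Most other varying plastid-encoded genes were lower in NJ15 on average as well. The plastid list was drawn up after the members were seen. Of 69 tested plastid-encoded probe sets 63 varied, and 59 of these were lower in NJ15 on average and 4 higher, with a median change of -0.26. Groups were apart in 13 of the 63, all with NJ15 lower, beside 5.96% of all varying probe sets apart in that direction. These plastid counts and their median include the 4 members, whose groups the rule required to be apart. The 13 therefore cannot be weighed against that share as a test. Larger average changes than those of the plastid members occurred in petN (-0.96), psaC (-0.76), ndhF (-0.76), ndhG (-0.73), rps14 (-0.63) and psbB (-0.62), but their groups overlapped. Of these rps14 encodes a ribosomal protein, and the others encode parts of the photosynthetic electron transport chain. In petN the levels were 8.49, 6.98 and 6.78 in NJ15, against 9.17, 8.10 and 7.86 in mock, so that replicate 1 was the highest array of both groups. The remaining polymerase subunit genes rpoC1, rpoC2 and rpoA had changes of -0.53, -0.45 and -0.10. Limma called none of the plastid probe sets at an adjusted p under 0.05.

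**Figure D3:**
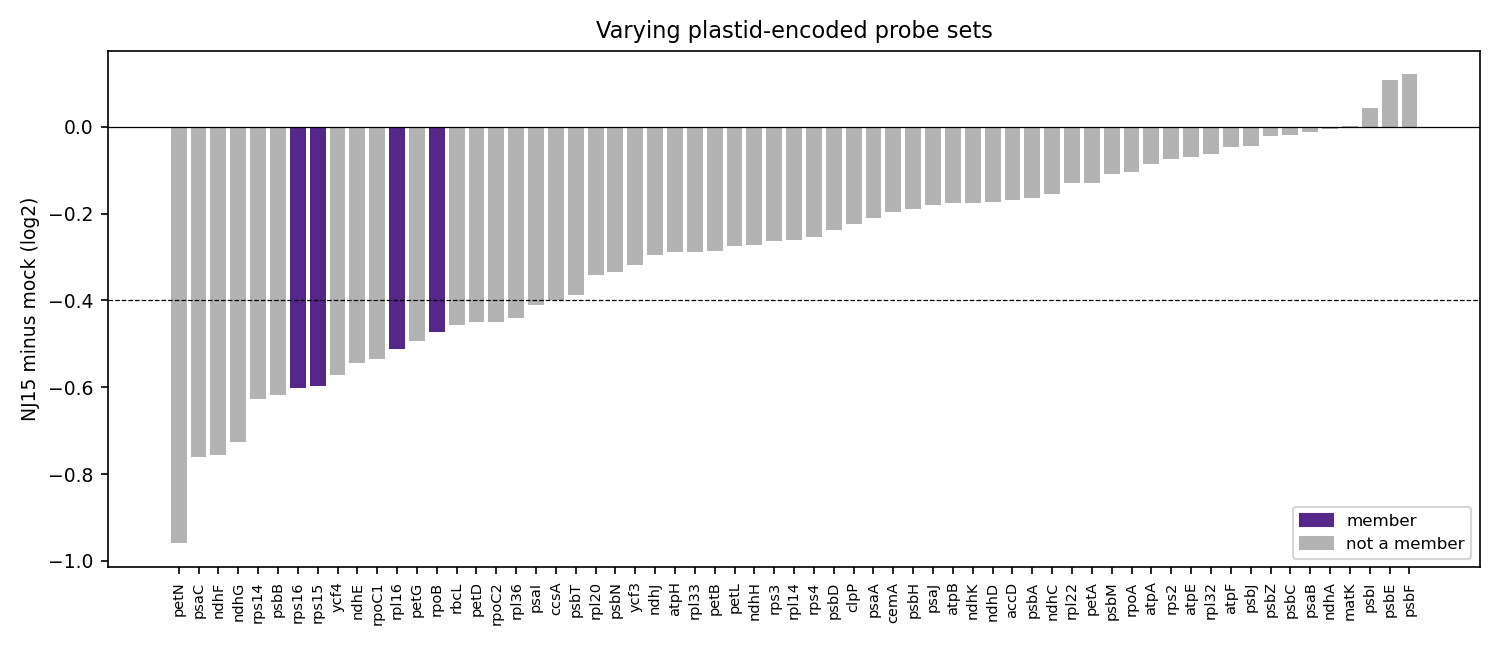
Bars give the change, NJ15 minus mock in log2 units, of each of the 63 varying plastid-encoded probe sets, ordered by size, with members in purple and a dashed line at -0.4. Members sit among other genes with changes as large, such as petN at -0.96, whose groups overlapped, and 59 of the bars lie below 0.

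Ribosomal RNA lay on the same side. The array's control probe set for 25S ribosomal RNA, which is not among the tested probe sets, had 10.88, 11.24 and 11.04 in NJ15, against 11.50, 11.47 and 11.49 in mock, a change of -0.44. That for 5S ribosomal RNA had 7.32, 6.04 and 6.06 in NJ15, against 8.03, 7.61 and 6.43 in mock, with overlapping groups. As background, the labelling kit starts from poly(A) tails, which most plastid transcripts and ribosomal RNAs lack or carry only briefly. The part of labelling in the plastid values was not tested. For nuclear photosynthesis markers the mean level of 4 measured genes of 19 listed (LHCB4.1, LHCB4.2, RCA and PRK) was 11.40 ± 0.35 in NJ15 and 11.42 ± 0.66 in mock seedlings (SD, n = 3 each; p = 1 by an exact, two-sided permutation test that cannot go below 0.1). It ran from 11.004 to 11.62 over the NJ15 arrays and from 10.75 to 12.06 over the mock arrays. The change of -0.014 rested on single arrays: leaving out NJ15 replicates 1, 2 and 3 in turn gave 0.19, -0.12 and -0.11, and leaving out mock replicates 1, 2 and 3 in turn gave -0.35, -0.0019 and 0.31.

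Regulatory genes formed a small group. AT2G28200, a zinc finger protein of the C2H2 type, had 7.87, 7.76 and 7.79 in NJ15, against 8.53, 8.32 and 8.23 in mock (-0.56). Its groups were 0.36 apart and both were narrow. AT1G51805, a receptor-like kinase with leucine-rich repeats, had 6.83, 6.55 and 6.51 in NJ15, against 6.92, 7.01 and 7.56 in mock (-0.54), and -0.34 without mock replicate 3. The F-box protein gene AT3G23880 had 8.07, 8.14 and 8.43 in NJ15, against 9.01, 8.79 and 8.45 in mock (-0.53), where NJ15 replicate 3 and mock replicate 3 almost met. F-box proteins select targets for ubiquitin ligases.

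AT2G18010 (SAUR10), of the family of small auxin-upregulated RNAs, was the dimmest member and the only one from the auxin families. Its levels were 6.15, 5.85 and 6.27 in NJ15, against 6.48, 6.71 and 6.34 in mock, a change of -0.41. The 8 other varying probe sets of the auxin families had changes between -0.45 (LBD16) and 0.35 (GH3.3), 5 lower and 3 higher, all with overlapping groups. The probe set shared by the histone H3 genes AT1G09200, AT5G65360, AT5G10400, AT5G10390 and AT3G27360 had 8.01, 8.02 and 8.39 in NJ15, against 8.48, 8.63 and 8.60 in mock (-0.43), and it cannot say which gene carried the difference. Histone H3 of this kind is made mainly in cells that copy their DNA. The varying histone genes HTB2 and HIS1-3 had changes of -0.30 and -0.05, with overlapping groups.

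The 6 metabolic enzymes had changes in a narrow band, from -0.51 to -0.41. AT2G39980, an acyltransferase of the BAHD family, had 8.27, 8.49 and 8.48 in NJ15, against 8.99, 8.99 and 8.79 in mock (-0.51). AT4G20230, of the terpene synthase family, had 6.95, 6.80 and 6.96 in NJ15, against 7.32, 7.25 and 7.61 in mock (-0.50). In both the groups were 0.30 apart. AT5G02540, a short-chain dehydrogenase, had 8.11, 7.46 and 8.08 in NJ15, against 8.30, 8.43 and 8.41 in mock (-0.49), with -0.28 once the low NJ15 replicate 2 was left out. The purple acid phosphatase gene AT1G25230 was bright, with 10.47, 10.41 and 10.70 in NJ15, against 11.08, 11.01 and 10.89 in mock (-0.47). ATSPS4F, a sucrose phosphate synthase that makes the precursor of sucrose, averaged 7.17 ± 0.12 in NJ15 and 7.61 ± 0.24 in mock seedlings (SD, n = 3 each), and AT1G19540, a reductase-like protein, averaged 7.32 ± 0.04 in NJ15 and 7.72 ± 0.10 in mock.

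Among stress and ion-binding genes the largest changes were those of AT5G22580 and AT1G12080. AT5G22580, whose protein has a stress-responsive barrel domain, had 9.21, 9.02 and 9.77 in NJ15, against 9.84, 10.08 and 10.66 in mock (-0.86). AT1G12080, related to vacuolar calcium-binding proteins, had 10.71, 10.24 and 11.21 in NJ15, against 11.66, 11.36 and 11.42 in mock (-0.76). Both had their lowest array in NJ15 replicate 2 and came nearest to mock in NJ15 replicate 3. AT5G40590, with a C1 domain rich in cysteine and histidine, had 6.83, 6.48 and 6.65 in NJ15, against 6.96, 7.53 and 6.93 in mock (-0.49), and -0.29 without mock replicate 2. The metal-binding protein gene AT3G24450 averaged 7.38 ± 0.12 in NJ15 and 7.84 ± 0.13 in mock, and the wound-responsive family gene AT4G28240 averaged 9.40 ± 0.13 in NJ15 and 9.86 ± 0.16 in mock (SD, n = 3 each).

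For 5 named members no role is given here. AT3G42800 had 6.53, 6.64 and 7.20 in NJ15, against 7.42, 7.55 and 7.40 in mock (-0.67). AT4G09890 had 8.23, 7.80 and 8.36 in NJ15, against 8.94, 8.80 and 8.40 in mock (-0.58). In each of these genes and in the remaining ones the highest NJ15 array was replicate 3. AT5G67020 had 6.93, 7.08 and 7.34 in NJ15, against 7.68, 7.82 and 7.46 in mock (-0.53). AT3G05900 and P1R1 had changes of -0.52 and -0.51, and that of P1R1 was -0.27 without mock replicate 3.

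The largest changes of all belonged to probe sets without a name, which took 9 of the first 12 places. Probe set 260957_at had 7.99, 7.55 and 8.33 in NJ15, against 9.21, 9.62 and 8.67 in mock, a change of -1.21. Probe set 260034_at had 6.89, 6.55 and 7.01 in NJ15, against 8.07, 8.12 and 7.76 in mock (-1.17), and its groups were 0.75 apart, the widest distance of any member. The third-largest change, -1.07, came from 7.25, 7.08 and 7.07 in NJ15, against 8.08, 7.47 and 9.06 in mock, and was -0.64 without mock replicate 3. The remaining 6 unnamed ones among the first 12 had changes from -1.06 to -0.76, and no single array moved any of them by over 1.5 times. The fourth-largest change came from a dim probe set with 6.03, 5.96 and 6.26 in NJ15, against 6.62, 7.34 and 7.46 in mock.

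Of the other unnamed members with the largest changes, the sixth in order had 7.07, 6.88 and 7.46 in NJ15, against 7.85, 7.89 and 8.69 in mock (-1.004). The ninth had 6.45, 6.38 and 7.11 in NJ15, against 7.17, 7.67 and 7.59 in mock (-0.83), and the twelfth had 6.75, 7.09 and 7.25 in NJ15, against 7.53, 7.88 and 7.97 in mock (-0.76). In all of these NJ15 replicate 3 was the highest treated array. Wide separation was seen in the seventh, with 10.36, 10.32 and 10.72 in NJ15, against 11.16, 11.50 and 11.31 in mock, 0.44 apart. It was also seen in the tenth, with 9.53, 9.74 and 9.75 in NJ15, against 10.26, 10.38 and 10.85 in mock, 0.51 apart. The second-widest distance of any member, 0.55, belonged to a probe set with the sixteenth-largest change, at 8.97, 8.86 and 8.80 in NJ15, against 9.58, 9.52 and 9.71 in mock (-0.73). There and in the fourteenth, with 6.48, 6.52 and 6.83 in NJ15 and 7.29, 7.54 and 7.23 in mock, the range of each group was smaller than the distance between them.

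The brightest member was also unnamed, at a mean level of 11.93 over 6 arrays. It had 11.27, 11.68 and 12.02 in NJ15, against 12.12, 12.08 and 12.41 in mock, and its change of -0.55 was -0.35 without NJ15 replicate 1. Another bright unnamed member had 10.42, 10.60 and 11.17 in NJ15, against 11.20, 11.36 and 11.34 in mock (-0.57), where NJ15 replicate 3 nearly met mock replicate 1.

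Across all members the NJ15 arrays did not contribute alike. NJ15 replicate 2 was the lowest NJ15 array in 41 members (52.6%), beside 33.8% of the varying probe sets, and NJ15 replicate 3 was the highest in 47 (60.3%), beside 26.8%. Relative to each member's mean over 6 arrays, the median deviation was -0.28, -0.37 and -0.17 in NJ15 replicates 1, 2 and 3, against 0.20, 0.28 and 0.28 in mock replicates 1, 2 and 3. NJ15 replicate 3 therefore lay closest to the mock arrays. The 244 probe sets higher in every NJ15 array had their lowest NJ15 value in replicate 3 as well, in 155 cases (63.5%), with median deviations of 0.55, 0.50 and 0.27 in NJ15 and -0.30, -0.44 and -0.62 in mock. So the smallest differences in both directions belonged to the same treated array, whereas the median over all varying probe sets deviated by no more than 0.023 on any array. The cause was not tested.

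**Figure D4:**
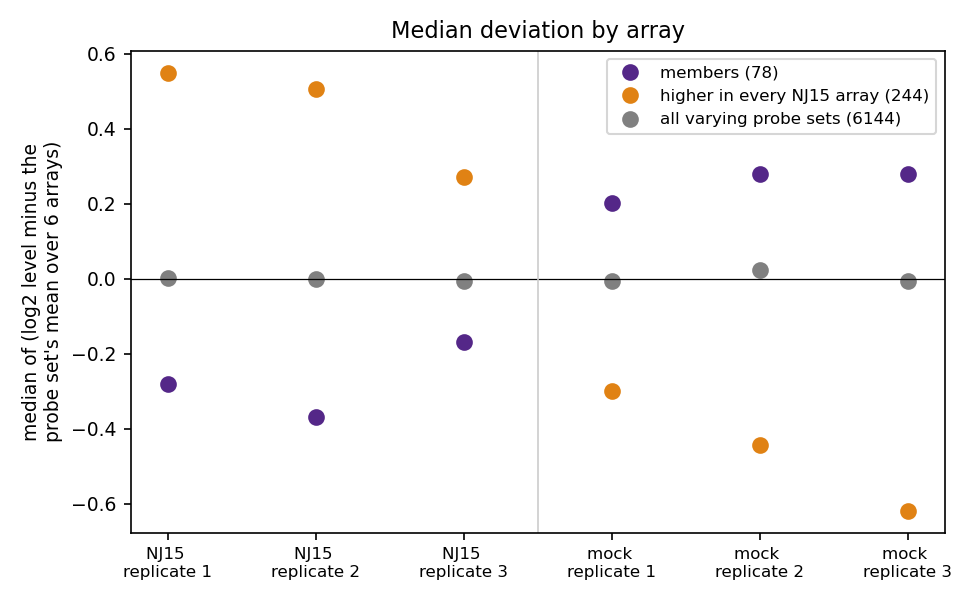
For each array (NJ15 replicates left, mock replicates right) points give the median of the log2 level minus the probe set's mean over 6 arrays, for the 78 members, the 244 probe sets higher in every NJ15 array and all 6144 varying probe sets. NJ15 replicate 3 is the treated array nearest to 0 in both selected sets, at -0.17 and 0.27.

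In the mock group, replicate 3 was the highest array in 35 members (44.9%, beside 39.4% of the varying probe sets) and the lowest in 27 (34.6%, beside 43.5%). Leaving out 1 array moved the change by over 1.5 times in 19 members, and in 14 of these the array was mock replicate 3. Among the 36 named members it moved 11, and 25 kept their size within that bound. Among the unnamed members it moved 8, and in 7 of these mock replicate 3 was the array. The most affected had 7.83, 7.90 and 7.98 in NJ15, against 8.12, 8.00 and 9.71 in mock, and its change of -0.71 was -0.16 without mock replicate 3. Genes whose change did not rest on any 1 array in this sense included AT1G62770, TBL36, ATPMEPCRB, Prx37, AT2G28200 and all 4 plastid members. The 35 single-gene members lay on all 5 nuclear chromosomes, with 8, 3, 7, 6 and 7 on chromosomes 1 to 5 and 4 in the plastid, and no pair were immediate neighbours in the order of protein-coding genes.

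The remaining families listed for comparison held few or no members. All 5 varying probe sets matched by name to tubulin and actin were lower in NJ15 on average, with a median of -0.23, and in each the groups overlapped. Their changes ran from -0.32 in ACT11 to -0.07 in PFI, which encodes a tubulin-folding cofactor and no tubulin. The 13 varying ribosomal protein genes were all plastid-encoded and so already counted above. All were lower on average, with a median of -0.29 and groups apart in 5, beside 5.96% of all varying probe sets apart with NJ15 lower. Of these 5, rps15, rps16 and rpl16 are members, apart by the rule, and rps3 and rpl14 are not members. Glycosyltransferases of the UGT families (21 varying), glutathione transferases (8) and nitrate and peptide transporters (5) held no member. Nor did probe sets matched by name as cytochromes P450 (4, among them SQN, which is a cyclophilin) or transcription factors with a family name (8). None of the probe sets of these 5 families had groups apart with NJ15 lower. With NJ15 higher, groups were apart in 5 UGTs, 1 glutathione transferase and 1 transcription factor, beside 6.51% of all varying probe sets. Limma called none of the tubulin, actin or ribosomal protein probe sets at an adjusted p under 0.05. Markers of the root tip, endodermis, vascular tissue and seed had no named probe set, and both measured root hair markers were flat at a mean level of 6.46, and the part these tissues had in the RNA was not analysed here. Of the markers of shoot epidermis and guard cells 3 of 6 were measured and 1 varied, with list means of 6.466 to 6.501 in NJ15 and 6.38 to 6.56 in mock.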

How the data were processed

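Total RNA of 6 seedling samples was hybridised to 1 Affymetrix array each with a 3 prime IVT labelling kit, as the labels' protocols state. The submitters' processing notes name R 2.7.2. Background correction and normalization were steps not given in the sources used here. In all, 22810 probe sets were deposited, with values whose range, 5.30 to 14.04, shows a log2 scale. With no scanner values, signal over background is unknown. Nothing was rescaled, and 64 control probe sets were set aside.

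After the value on 1 array had been subtracted from each probe set and the result rounded to 9 decimals, a linear model was fitted (limma 3.58.1, lmFit and eBayes, under R 4.3.3). Its two-sided p-values were adjusted by Benjamini-Hochberg over the 22746 tested probe sets. The fit was tested on simulated data first. Members, roles and families were chosen with earlier results of these data known. Named genes were all members with 1 gene name; array values are given for the largest changes, widest gaps, brightest members and up to 3 per role. Probe sets were named from GEO's platform annotation, with symbols refreshed from RefSeq's TAIR10.1 genes, which served for names and neighbours only: 13513 tested probe sets had 1 gene (13484 matched a locus), 503 several and 8730 none listed, so a gene on the list of names left out may be among the unnamed members. Families were read from symbols and synonyms, which miss genes that carry only a locus number; lipases, subtilases, oxygenases and glucosinolate genes were not counted, and no promoter motif was searched because no sequence was used here. The main fit did not pair arrays by replicate number, and whether the numbers pair them is not known, as the closing section says. Alternatives were other scalings, thresholds, filters and priors, a replicate block and leaving out arrays.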

Additional observations from a re-analysis of the deposited data

Results flagged for a closer look

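The control probe set for 25S ribosomal RNA stands outside the tested probe sets and met the same conditions as the members. Its level averaged 11.05 ± 0.18 in NJ15 and 11.49 ± 0.02 in mock seedlings (SD, n = 3 each), a change of -0.44 with the groups 0.23 apart. It was the only 1 of 29 varying control probe sets that did so, and its relation to the members was not tested. Controls also differed in the other direction. Those for GAPDH were higher in NJ15 on average, with changes from 0.11 to 0.61, and at 0.61 the groups were apart.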

How the results depend on the processing

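The changes of the 36 named members lay between -1.29 and -0.15 under both scalings and in each of the 6 leave-outs. Their sign in the leave-outs was fixed by the rule, which kept every NJ15 array below every mock array, and shows nothing about stability. The median change of the members ran from -0.59 to -0.49 over all alternatives. The rule took 88 probe sets after quantile normalization (77 of them members) and 93 after centring (all 78). It took 117, 46 and 6 at thresholds of -0.3, -0.5 and -1, 58 without probe sets of low mean, 132 when NJ15 had to lie below mock within each replicate number (replicate block), and 80 to 256 in the leave-outs. Apart from both scalings, these alternatives change what a probe set must pass; for the scalings the cause was not tested. The 44 limma calls over all probe sets became 0 after quantile normalization, without low means, with a trend and robust prior and with the replicate block, where 3347, 618, 886 and 1208 had an unadjusted p under 0.05. After centring they became 17165, of which 574 were varying probe sets and the others flat, beside 4 varying ones of the 44. Centring moves all values of an array by 1 constant, so flat probe sets then differ between arrays. The calls became 4 over varying probe sets and 4 to 15 in the leave-outs. The cause of these differences in count was not tested. Same-numbered arrays deviated with correlations of 0.586, -0.305 and 0.192 for replicates 1, 2 and 3, and differently numbered ones with -0.523 to 0.417. With 3 arrays per group these values cannot decide whether the numbers pair the arrays. With the block limma called none of the members, and 29 had an unadjusted p under 0.05. The change of the photosynthetic marker mean, -0.014, was 0.0025 after quantile normalization, 0.31 without mock replicate 3 and 0.19 without NJ15 replicate 1, and lay between -0.35 and 0.31 in the leave-outs. Unknown signal over background limits what flat or dim probe sets can show.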
